A study of Mus musculus with 6 samples.

Results

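The S100 and annexin genes encode 2 families of calcium-binding proteins, and 10 of them were read in pancreatic islets of mice that lack Vhlh in beta cells and of control mice. The 10 genes are S100a1, S100a4, S100a6, S100a10, S100a11, S100a13, Anxa1, Anxa2, Anxa4 and Anxa5. A probe set, the group of array probes that reports a transcript, was taken for a gene when the platform annotation gave it exactly 1 gene symbol and that symbol was among the 10. This found 17 probe sets for 9 of the 10 genes, of 18193 genes with such a probe set on the array. S100a11 had none, because its probe set also carries the symbols of other genes, and it was not analysed here. The genes were chosen by family and selected on their knockout and control signals of these same arrays, so the comparison between genotypes is given for them as a description.

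The knockout islets, labelled VhlhKO, were measured on 3 arrays and came from a model in which RIP2-Cre, a recombinase driven by the rat insulin promoter, acts on Vhlh(fl/fl) alleles in beta cells. Islets labelled control were also measured on 3 arrays, and their own alleles and Cre status are not given by the labels, which repeat the same description of the model. Each genotype had a number 01 from 26-week male, a number 02 from 20-week female and a number 03 from 18-week male mice. Each genotype gave 3 batches of islets, with 1 array per batch, and how many mice were pooled into a batch is not stated in the sources used here. The spread behind each p-value is thus that between batches, which also differ in age and sex.

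S100 proteins are small dimers built from EF-hand calcium-binding loops. On binding calcium most of them expose a surface that docks onto other proteins, and they have no enzyme activity of their own. Annexins are a separate family that binds negatively charged phospholipids in the presence of calcium and takes part in membrane traffic, repair and exocytosis. The families meet in the complex of S100a10 with Anxa2. Vhlh, or Vhl by its present symbol, is the von Hippel-Lindau gene, whose product targets the alpha subunits of hypoxia-inducible factor (HIF) for destruction in the presence of oxygen.

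The values are MAS5 signals, the linear intensity that the Affymetrix software gives a probe set, and all 6 arrays had the same 2% trimmed mean of 500.003. The brighter Vhl probe set had signals of 344, 358 and 467 in the knockout islets, against 457, 639 and 839 in the control islets. Its log2 difference, knockout minus control, was -0.70 (standard error, SE, 0.32; limma adjusted p 0.9998), so it did not pass the threshold of 0.05. Of the 11609 genes tested 2 passed, 0.0172%, and 6 passed with the replicate number as a block, 0.0517%. Without knockout 01 or without knockout 03 the number was 0, and without control 02 it was 5. All 7 beta-cell markers and all 8 alpha, delta and PP cell markers that were measured lay above the array median on every array. Acinar markers, which stand for exocrine tissue, were lowest on knockout 03, where the mean of 12 markers stood at -4.98 log2 units relative to the control mean. Fibroblast and matrix markers were highest on that array, at 2.27 log2 units above the control mean.

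Each of the 9 measured genes had a probe set above the array median on all 6 arrays, and each was tested in the fit across all genes. None of the 9 passed limma's adjusted threshold, with the replicate block or without it, and 1, S100a6, had an unadjusted p under 0.05, where 1.99% of genes tested did so in that direction. A total of 7 of the 9 had a positive log2 difference, against 5800 of the 11609 genes tested, and their median was 0.56, against -0.00028 over all genes tested. Without knockout 03 that median was 0.13, and with the probe sets of each gene averaged it was 0.16. Knockout signals lay above every control signal for 2 of the 9, S100a6 and S100a13, where 3.98% of genes tested did so. For 0 of the 9 they lay below every control signal, where 2.77% did so. No weight can be put on these shares, since the genes were picked with these values in view.

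**Figure D1:**
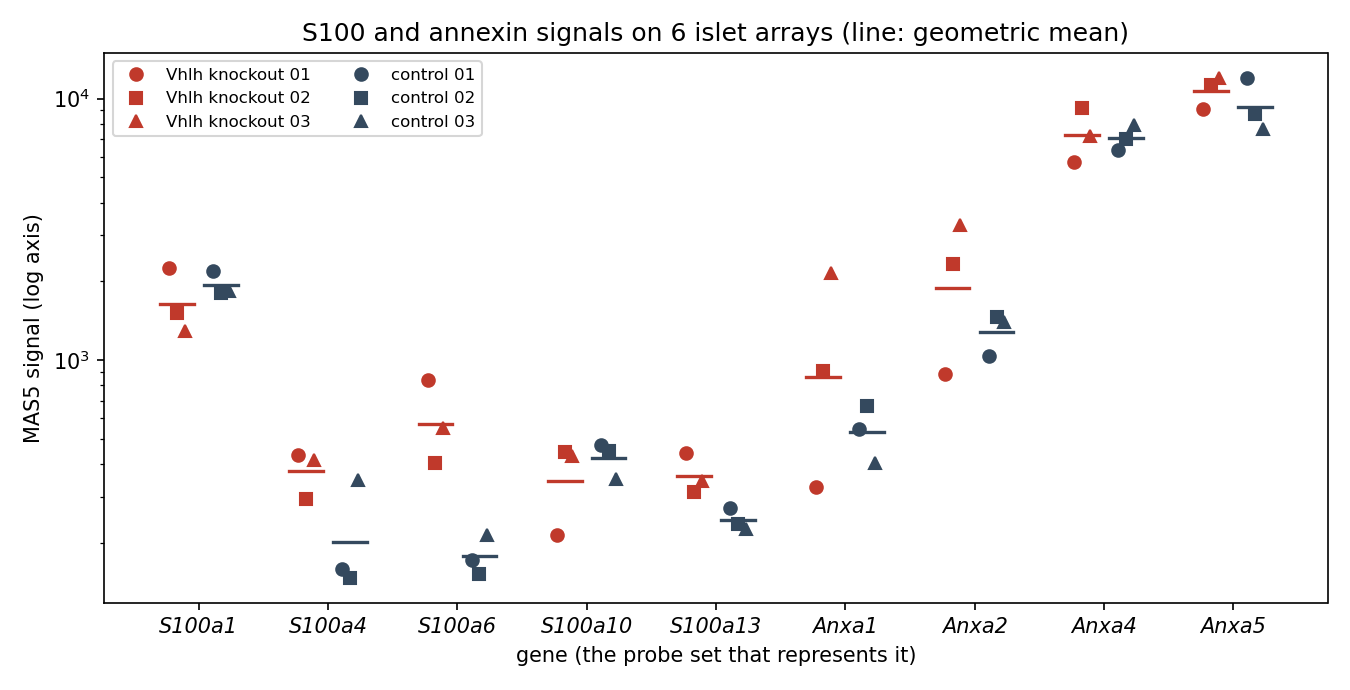
MAS5 signal on a log axis of the probe set that represents each of 9 S100 and annexin genes, on the 3 Vhlh knockout arrays (red, left) and the 3 control arrays (dark, right), with the number of the array as the symbol and the geometric mean as a line. Knockout and control points are fully apart for S100a6 and S100a13, while Anxa1 and Anxa2 spread most among the knockout arrays.

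S100a6, also called calcyclin, which binds the ubiquitin-ligase adaptor Cacybp, had the greatest difference of the 9. Its signals were 837, 402 and 547 in the knockout islets 01 to 03, against 171, 152 and 215 in the control islets. All 3 knockout signals lay above all 3 control signals. The ratio of geometric means was 3.20-fold, a log2 difference of 1.68 (SE 0.35, 95% interval 0.88 to 2.48). By same-numbered pair it was 2.29, 1.40 and 1.35 for the pairs 01, 02 and 03. Leaving out 1 array at a time gave between 1.40 and 1.93, so no single array carried it, and without knockout 03 it was 1.71.

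S100a4, a protein of fibroblasts and motile cells that binds non-muscle myosin, lay higher on most knockout arrays. Its signals were 434, 293 and 415 in knockout islets, against 159, 147 and 346 in control islets. Knockout 02 fell below control 03, so the groups overlapped at that point. The ratio was 1.87-fold, a log2 difference of 0.90 (SE 0.40), and it ranged from 0.68 without control 02 to 1.30 without control 03. The pairs gave 1.45, 1.00 and 0.26, the lowest being the pair 03 with its high control, and without knockout 03 the difference was 0.83.

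S100a13 serves in the release of growth factors and cytokines that lack a secretion signal, such as Fgf1 and Il1a. Its signals were 440, 312 and 343 in knockout islets, against 273, 235 and 226 in control islets. The groups did not overlap, though the lowest knockout array and the highest control array were close. Knockout over control was 1.48-fold, a log2 difference of 0.57 (SE 0.30, 95% interval -0.11 to 1.24). It was even across the pairs, at 0.69, 0.41 and 0.60, and was 0.60 without knockout 03.

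S100a1, best known from heart and skeletal muscle, where it acts on calcium release channels and the calcium pump of the sarcoplasmic reticulum, lies beside S100a13 in the RefSeq gene order on chromosome 3. Its signals were 2248, 1519 and 1286 in knockout islets, against 2195, 1810 and 1838 in control islets. Knockouts 02 and 03 were the 2 lowest of the 6 arrays, and knockout 01 was the highest. The log2 difference was -0.24 (SE 0.29), -0.47 without knockout 01 and -0.07 without knockout 03. A second S100a1 probe set, above the array median on 1 array, differed by 0.48, so the probe sets of this gene disagree in sign. With the mean of both probe sets the difference was 0.12.

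S100a10, which has lost the ability to bind calcium and pairs with Anxa2 at membranes, showed no common direction. Its signals were 214, 445 and 428 in knockout islets, against 473, 449 and 351 in control islets. Knockout 01 stood low and the other knockout arrays lay within the control range. The log2 difference of -0.29 (SE 0.36) became 0.05 without knockout 01, -0.48 without knockout 02 and -0.45 without knockout 03. A further probe set, whose suffix _x_at marks probes shared with other transcripts, read 2002, 778 and 3431 in knockout islets, against 862, 2389 and 2392 in control islets, and differed by 0.04. These probe sets do not order the arrays alike, knockout 01 being the lowest array on one and mid-range on the _x_at probe set. The remaining one, above the array median on 2 arrays, differed by -0.14.

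The stretch of genome around the start site is shown for the S100 genes whose knockout and control signals did not overlap, S100a6 and S100a13, for S100a4 as a near neighbour of S100a6 on the same strand, and for Anxa2 as the partner of S100a10. The sequences are the RefSeq windows of build GRCm38.p6, 250 bases before to 50 after the start site, read 5′ to 3′ along the gene, with matches to ACGTG or GCGTG on either strand in capitals. Those letters are the core of the element that HIF binds. The windows are chr3:90612644-90612943 on the plus strand for S100a6, chr3:90514185-90514484 on the plus strand for S100a13, chr3:90603520-90603819 on the plus strand for S100a4 and chr9:69453433-69453732 on the plus strand for Anxa2.
S100a6: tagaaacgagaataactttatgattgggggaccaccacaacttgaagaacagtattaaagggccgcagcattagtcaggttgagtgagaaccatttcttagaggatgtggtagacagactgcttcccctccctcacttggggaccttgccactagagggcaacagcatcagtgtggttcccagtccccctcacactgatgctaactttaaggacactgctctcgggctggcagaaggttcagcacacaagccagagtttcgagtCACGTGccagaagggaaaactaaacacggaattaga
S100a13: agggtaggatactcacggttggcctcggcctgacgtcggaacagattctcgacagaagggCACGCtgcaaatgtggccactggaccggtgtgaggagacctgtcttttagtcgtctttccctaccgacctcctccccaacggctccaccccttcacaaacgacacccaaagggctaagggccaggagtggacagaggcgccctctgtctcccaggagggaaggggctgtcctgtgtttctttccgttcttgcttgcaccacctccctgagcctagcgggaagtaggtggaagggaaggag
S100a4: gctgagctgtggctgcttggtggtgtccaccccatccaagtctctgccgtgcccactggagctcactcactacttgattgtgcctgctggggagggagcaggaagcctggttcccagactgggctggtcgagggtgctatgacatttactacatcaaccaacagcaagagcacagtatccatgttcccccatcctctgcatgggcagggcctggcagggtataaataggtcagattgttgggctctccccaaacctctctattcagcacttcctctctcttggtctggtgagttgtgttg
Anxa2: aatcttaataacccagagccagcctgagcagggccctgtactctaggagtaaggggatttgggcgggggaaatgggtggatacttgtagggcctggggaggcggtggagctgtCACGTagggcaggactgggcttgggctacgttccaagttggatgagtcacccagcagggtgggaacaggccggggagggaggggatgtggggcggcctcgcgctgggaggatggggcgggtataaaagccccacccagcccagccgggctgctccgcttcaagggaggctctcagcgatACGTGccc

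The S100a6 window holds 1 match, which starts at base 15 of the transcript and is part of CACGTG, a palindrome that is also the E-box recognised by other factors. It was counted once. S100a13 has 1 match, at -190 from its start site, Anxa2 has 2, and S100a4 has 0. RefSeq windows were found for 9 of the 10 genes, not for S100a10, and Anxa4 has 2 of them, which makes 10 windows. At least 1 match was present in 7 of the 10, against 43.8% of all 32851 windows of the same length. Both Anxa4 windows and that of S100a11, which has no signal here, are among the 7. CACGTG was in 2 of the 10, those of S100a6 and S100a11, against 7.15% of all windows. TATAAA lies before the start site in S100a4, Anxa1 and Anxa2, 3 of the 10, against 7.59% of all windows. A match is a description of the letters and does not show that a factor binds there. The S100a1 and S100a13 start sites face away from each other on opposite strands, and their windows share 204 bases, chr3:90514281-90514484. The S100a1 window holds 0 matches, and the log2 differences of these neighbours were 0.57 for S100a13 and -0.24 for S100a1. Anxa5 has the most matches of the 10 windows, 3, where 6.55% of all windows have 3 or more, and it differed by 0.21. S100a4, with 0 matches, differed by 0.90. A link between matches and differences was not tested.

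Among the annexins the signals of Anxa1, a glucocorticoid-induced protein that acts on formyl peptide receptors, were the most uneven. They were 328, 907 and 2144 in knockout islets, against 544, 670 and 404 in control islets. Knockout 01 was the lowest of all 6 arrays and knockout 03 the highest, a 6.53-fold span among knockouts against 1.66-fold among controls. On the log2 scale the difference was 0.70 (SE 0.59, 95% interval -0.62 to 2.03). The pairs gave -0.73, 0.44 and 2.41. It was 0.05 without knockout 03 and 1.40 without knockout 01, so 1 array decides its size, and without both arrays numbered 03 it was -0.15. A second Anxa1 probe set stayed below the array median on every array.

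Anxa2, which links membranes to actin, takes part in exocytosis and binds plasminogen on cell surfaces, ordered the knockout arrays as Anxa1 did. Its signals were 881, 2320 and 3275 in knockout islets, against 1034, 1454 and 1396 in control islets. Knockouts 02 and 03 lay above every control and knockout 01 below every control. The log2 difference was 0.56 (SE 0.46), and it was 0.16 without knockout 03 and 1.11 without knockout 01. A pair of other Anxa2 probe sets, above the array median on 0 and 2 arrays, differed by -0.72 and -1.12. The mean of all 3 probe sets of the gene gave -0.43, a turn of sign that rests on the dim probe sets.

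Anxa4, an annexin of secretory epithelia, and Anxa5, which binds phosphatidylserine and inhibits clotting, differed little on the probe sets that represent them. Anxa4 signals were 5706, 9216 and 7217 in knockout islets, against 6353, 7030 and 7911 in control islets. The knockout arrays spanned both sides of the control range. Their log2 difference was 0.03 (SE 0.26, 95% interval -0.55 to 0.62), between -0.14 without knockout 02 and 0.21 without knockout 01. Other bright probe sets of Anxa4 differed by 0.33 and -0.02. They spread more among controls, at 1558, 2352 and 563 on the first and 459, 566 and 215 on the second. Control 03 was the lowest array on both, but the highest control on the probe set that represents Anxa4. Anxa5 signals were 9103, 11286 and 11981 in knockout islets, against 11956, 8736 and 7631 in control islets. Control 01 was close to the highest knockout array, so the groups overlapped. Its log2 difference was 0.21 (SE 0.26, 95% interval -0.37 to 0.78), and the pair values were -0.39, 0.37 and 0.65. It ranged from 0.07 without control 03 to 0.39 without control 01, and was 0.13 without knockout 03.

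**Figure D2:**
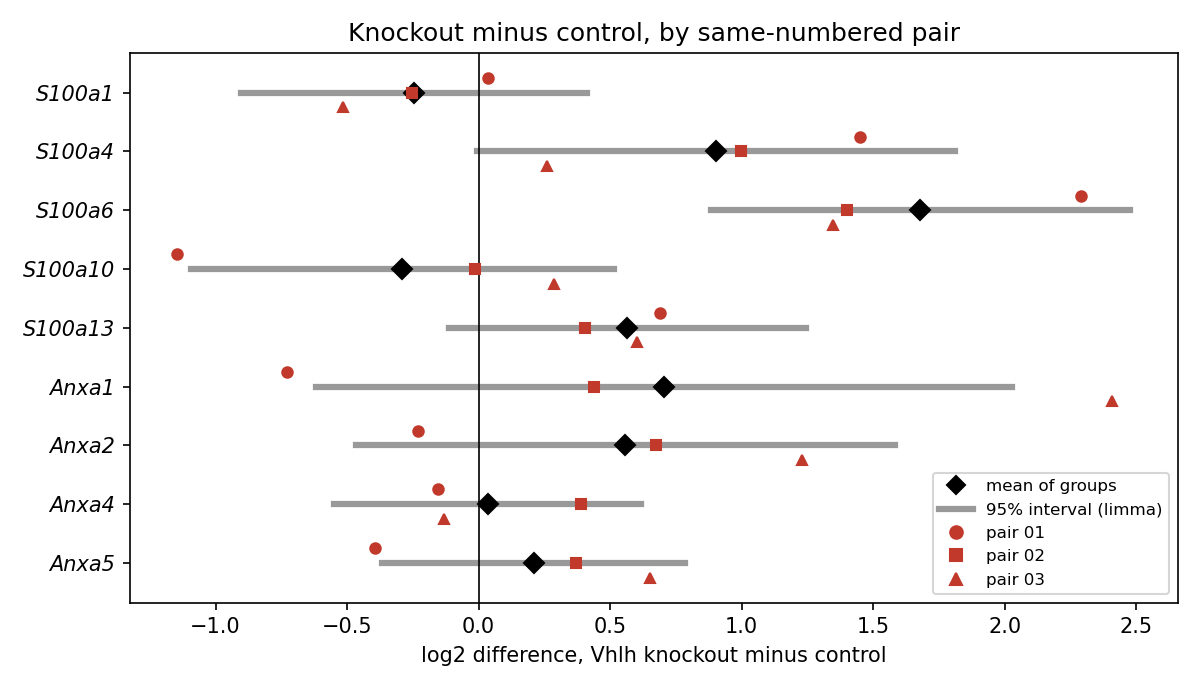
Log2 difference, Vhlh knockout minus control, for each same-numbered pair (red symbols), for the group means (black diamond) and with limma's 95% interval (grey bar), for 9 S100 and annexin genes. S100a4, S100a6 and S100a13 were above 0 in all 3 pairs, and for Anxa1 the pairs ran between -0.73 and 2.41.

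The pair values show how far the genes followed each other. In all 3 pairs 3 of the 9 genes were higher in the knockout, S100a4, S100a6 and S100a13. A further 3 were higher in 2 pairs (Anxa1, Anxa2 and Anxa5) and 3 in 1 pair (S100a1, S100a10 and Anxa4). Likeness between genes was measured as the root mean square difference of their log2 profiles over the 6 arrays, each centred on its own mean. Over the 36 pairs of genes its median was 0.67. Closest were Anxa4 and Anxa5 at 0.32, then S100a13 and Anxa5 at 0.33 and S100a10 and Anxa4 at 0.34. S100a10 and Anxa5 were at 0.36, and Anxa1 and Anxa2 at 0.38. S100a4 and S100a6 were at 0.50, and S100a10 and its partner Anxa2 at 0.56. S100a6 and Anxa1 were at 1.17, and S100a6 and S100a10 were farthest apart at 1.20. The mean profile of the 9 genes stood 0.21, 0.46 and 0.71 log2 units above the control mean on knockouts 01, 02 and 03, with controls between -0.03 and 0.03.

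**Figure D3:**
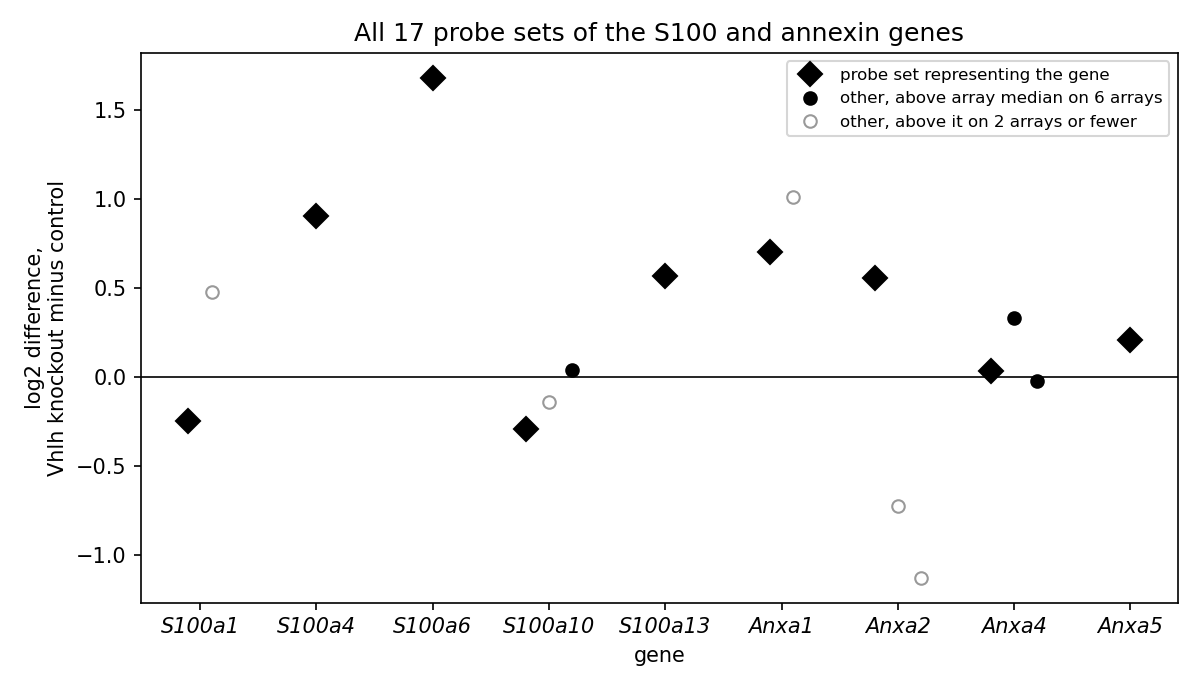
Log2 difference, Vhlh knockout minus control, of all 17 probe sets of 9 genes, with the probe set that represents a gene as a diamond, other bright probe sets as filled circles and dim ones as open circles. S100a4, S100a6, S100a13 and Anxa5 have 1 probe set each, and the probe sets of S100a1, S100a10, Anxa2 and Anxa4 lie on both sides of 0.

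Whole islets do not show which cells a signal came from, and fewer cells of a type cannot be told apart from less RNA per cell. Several of these genes are expressed in stroma, ducts and leukocytes, so markers of those cells are given beside them. Fibroblast and matrix markers, of which 17 of 19 were tested, all had a positive difference, with a median of 1.22, and of 0.39 without knockout 03. Their summed signal was 9328 to 32849 in knockout islets and 5108 to 9891 in control islets. The list mean stood 0.50, 0.55 and 2.27 log2 units above the control mean on knockouts 01, 02 and 03. Controls 01, 02 and 03 stood at -0.56, 0.41 and 0.15, and pair 02 differed by only 0.14. Of the 9 S100 and annexin genes, Anxa1 and Anxa2 were likewise highest on knockout 03. Anxa5 was nearly level there and on control 01, at 11981 and 11956. S100a1, S100a4, S100a6 and S100a13 were highest on knockout 01, Anxa4 on knockout 02 and S100a10 on control 01. Duct markers, 8 of 12 tested, had a median of 0.16, between -0.08 without knockout 01 and 0.54 without knockout 03, with sums of 19160 to 37131 in knockout islets and 17850 to 32117 in control islets. Leukocyte markers, 13 of 16 tested, had a median of 0.39, and of 0.23 without knockout 03, with sums of 5790 to 9303 in knockout islets and 4879 to 9500 in control islets. Endothelial markers, 11 of 12 tested, had a median of 0.44, with sums of 12057 to 16456 in knockout islets and 9556 to 10335 in control islets. No probe set of any gene was at 0 on any array, so a marker signal above 0 does not show that its cell type was present. The part of these cells in the S100 and annexin values was not tested.

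The direction of the acinar markers, all 12 measured ones, came from 1 array. Their median was -1.08 with all arrays, 0.92 without knockout 03 and 0.21 without both arrays numbered 03. Knockouts 01 and 02 stood 0.80 and 1.21 log2 units above the control mean, with controls 01, 02 and 03 at 0.71, 0.89 and -1.59. Their sums were 10695 to 636363 in knockout islets and 104852 to 507012 in control islets. Neural and Schwann markers, 5 of 9 tested, had a median of 1.68 that single arrays moved both ways. It was 0.70 without knockout 03, 0.81 without control 01, 0.81 without control 03 and 2.32 without control 02. When genes had to lie above the median on all 6 arrays, only 1 of these markers was left, at 0.32. The 5 tested had sums of 1002 to 3163 in knockout islets and 648 to 1356 in control islets. Of 4 mesothelial markers 1 was tested, at -0.81, and at -0.43 without knockout 03, with signals of 74 to 285 in knockout islets and 157 to 344 in control islets. Beta-cell markers had a median of -0.20, between -0.34 without control 03 and -0.10 without control 02, with sums of 68607 to 128594 in knockout islets and 91014 to 115803 in control islets. For alpha, delta and PP markers the median was 0.27, with sums of 139853 to 196831 in knockout islets and 146280 to 163229 in control islets. None of the markers in these 9 lists passed the threshold in limma. At an unadjusted p under 0.05 there were 5 fibroblast and matrix, 2 neural and Schwann, 1 duct and 1 endothelial marker, all higher in the knockout, where 1.99% of genes tested did so in that direction.

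**Figure D4:**
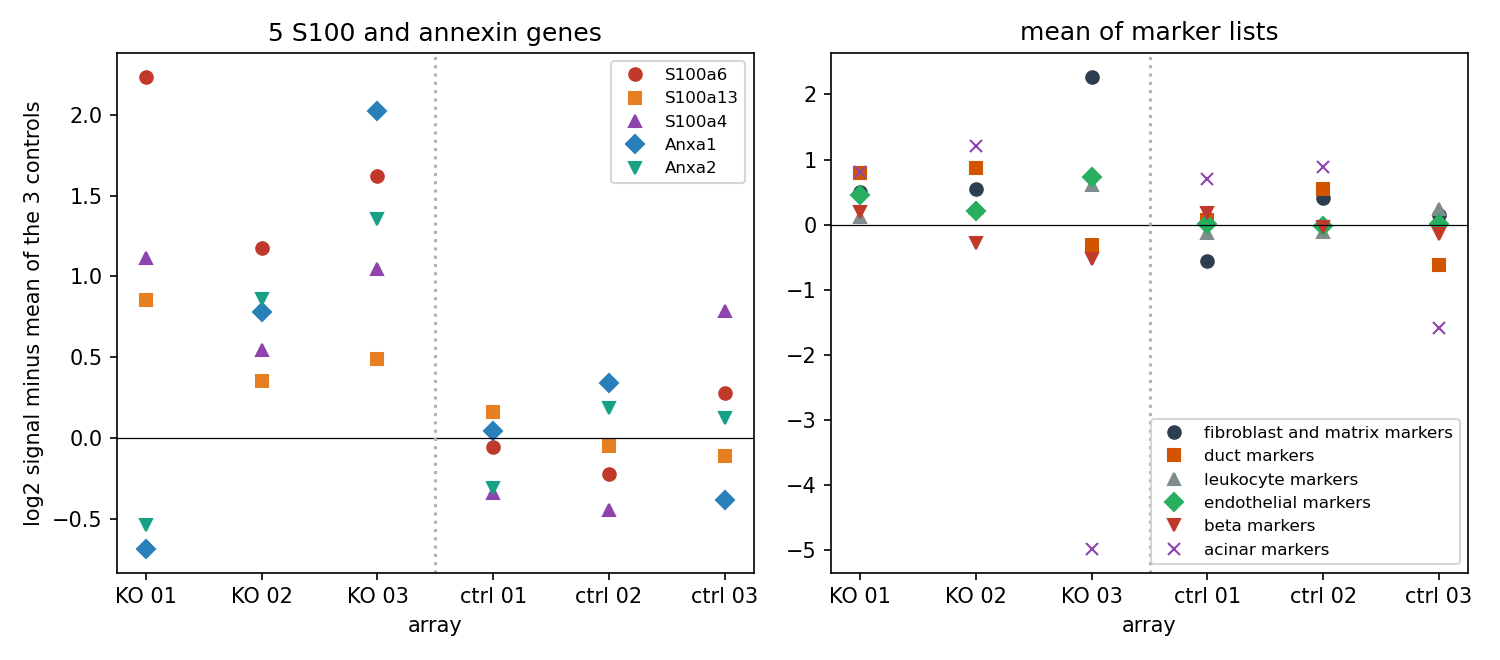
Log2 signal of 5 S100 and annexin genes (left) and mean log2 signal of 6 marker lists (right) on each array, relative to the mean of the 3 controls, with knockout arrays before control arrays. Anxa1, Anxa2 and the fibroblast and matrix markers are highest on knockout 03, where the acinar markers stand at -4.98 log2 units relative to the control mean, and S100a6 is highest on knockout 01.

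Of the other S100 and annexin genes, 15 were on the array and 6 were bright enough to test. In the limma fit over all genes 0 of the 6 passed in either direction (0 also at an unadjusted p under 0.05), with 4 positive and 2 negative differences and a median of 0.48. That median was 0.21 without knockout 02, 0.27 without control 03 and 0.20 when only genes above the median on all 6 arrays were kept. The lowest p was that of S100a16, another gene of the S100 cluster on chromosome 3. Its signals were 1102, 823 and 1189 in knockout islets, against 665, 648 and 805 in control islets. The groups did not overlap. A second probe set, an _x_at one with probes shared with other transcripts, differed by 0.67 and did not overlap either. This was so in that direction for 1 of the 6 genes, against 3.98% of genes tested. Its log2 difference was 0.55 (SE 0.27, limma adjusted p 0.9998). It ranged from 0.44 to 0.70 when 1 array was left out.

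S100b, a protein of glia and Schwann cells, differed by 0.91 (SE 0.66). Its signals were 83.7, 150 and 131 in knockout islets, against 76.9, 108 and 29.6 in control islets. They were above the array median on 3 arrays, and control 03 lay far below it. Without control 03 the S100b difference was 0.37. A second S100b probe set, above the array median on 1 array, differed by -0.02. Anxa3 differed by 0.41 (SE 0.36), and by 0.18 without knockout 03 and 0.76 without knockout 01. Anxa13, an annexin of epithelia, differed by 0.68 (SE 0.69), and by 0.05 without knockout 02, 0.17 without control 03 and 1.26 without knockout 03. Anxa6 differed by -0.03 (SE 0.35), and its sign turned with the array left out. A set of 4 Anxa6 probe sets did not go one way, and 2 of them had every knockout signal below every control signal, with differences of -0.59 and -0.47. Of genes tested, with 1 probe set each, 2.77% did so. S100a8 and S100a9, which are abundant in neutrophils, were too dim to test, both below the array median on every array. S100a8 signals were 53.0, 32.5 and 46.9 in knockout islets, against 9.87, 3.63 and 59.8 in control islets. Those of S100a9 were 7.20, 4.45 and 3.90 in knockout islets, against 4.50, 19.9 and 7.01 in control islets. Both genes overlapped between the groups, and their differences had opposite signs, 1.75 for S100a8 and -0.78 for S100a9.

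Among known partners and receptors of S100 and annexin proteins 17 of 23 were tested, 12 with a positive and 5 with a negative difference, and the median was 0.09, between -0.08 without knockout 02 and 0.28 without control 02, with 0.16 without knockout 03. None passed in limma over all genes, and 2 had an unadjusted p under 0.05, both higher, where 1.99% of genes tested did so. Ahnak, a giant scaffold protein that binds the complex of S100a10 with Anxa2, had signals of 1218, 1968 and 2194 in knockout islets, against 619, 1028 and 625 in control islets. All knockout signals lay above all control signals. The difference was 1.24 (SE 0.34, limma adjusted p 0.9998), and between 1.07 and 1.50 when 1 array was left out. Dysf, which encodes the membrane repair protein dysferlin that binds annexins, had signals of 214, 200 and 160 in knockout islets, against 78.2, 62.1 and 95.9 in control islets. These groups did not overlap either. Knockout signals lay above every control signal for 2 of the 17 genes, where 3.98% of genes tested did so. Dysf lay above the array median only on the knockout arrays, which was just enough for it to be tested. Its place among the 17, its lack of overlap and its low p thus follow in part from that filter and carry no weight. The Dysf difference was 1.29 (SE 0.44, limma adjusted p 0.9998), and every control signal was below the array median, so the fold rests on dim values. The synaptic vesicle calcium sensor Syt1 differed by 0.70 (SE 0.37), and by 0.32 without knockout 03. The potassium channel gene Kcnk3 differed by 1.14 (SE 0.68), between 0.39 without control 01 and 1.79 without control 03. Fgf1 differed by 0.40 (SE 0.35), and by 0.12 without knockout 02 and 0.20 without control 03.

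Calcium-binding proteins outside the S100 family, most with EF hands, were centred near 0. Of 30 genes 22 were tested, 13 with a positive and 9 with a negative difference, a median of 0.07 (-0.07 without control 03) and 0 that passed in limma (0 also at an unadjusted p under 0.05). Those of lowest p were Rcn3, a reticulocalbin of the endoplasmic reticulum (0.69), the neuronal calcium sensor Ncs1 (0.53), Cib1 (-0.40), Efhd2 (-1.11) and the calcium buffer Calb1 (0.31). Cib1 signals were 388, 338 and 397 in knockout islets, against 482, 477 and 519 in control islets, and these groups did not overlap. Knockout signals lay below every control signal for 1 of the 22, where 2.77% of genes tested did so. Efhd2 spread from 336 to 3967 among controls alone, and its difference ran between -2.18 without control 01 and -0.40 without control 03, with -0.60 without knockout 03. That of Ncs1 was 0.27 without control 03, and that of Calb1 ran between 0.21 without control 03 and 0.52 without control 02.

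The genes outside the family whose profile over the 6 arrays was most like the mean profile of the 9 were Apc, a scaffold of Wnt signalling, D17H6S56E-5, Stx4a, a syntaxin of the plasma membrane, Dpysl2 and Gpr155. Their root mean square differences from it were between 0.08 and 0.09 log2 units, where the median of all genes tested was 0.47. Apc stood at 0.02, 0.15 and 0.37 around its own mean on knockouts 01 to 03 and at -0.21, -0.13 and -0.19 on the controls, against -0.02, 0.23 and 0.48 and -0.22, -0.26 and -0.20 for the mean of the 9. The order of the arrays was knockout 03 highest, then knockout 02 and knockout 01, in both.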

How the data were processed

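Per the submitters' processing notes, the deposited values are signal intensity per probe set, made by the authors with GCOS 1.4 and MAS5. Checked on the values, all arrays share 1 trimmed mean, so the authors' global scaling is in them. Per the labels' protocols, total RNA was amplified in successive rounds of cDNA synthesis before hybridization.

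Each gene stood for 1 row, the probe set with the greatest mean log2 signal, with _x_at ones used only in the absence of others. Genes above the array median on at least 3 of 6 arrays were tested. Log2 signals were fitted without an offset in R 4.3.3 with limma 3.58.1 (lmFit, eBayes with an intensity trend), with Benjamini-Hochberg adjustment over all 11609 genes and a threshold of 0.05, in a script tested on simulated data. Names came from the platform annotation, and RefSeq changed 0 symbols.

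The members and lists were chosen with earlier results of these data known. Named genes are all members, Vhl, the up to 5 tested genes of lowest p in each other list and the 5 most like the member mean. S100a8, S100a9 and single probe sets were named after their values were seen. Same-numbered arrays share age and recorded sex. Their deviations from the group means correlated at 0.15, 0.42 and 0.43, which met the pairing rule of over 0.1. Control 01 with knockout 02 also met it, at 0.14, so the rule does not set pair 01 apart. The standard errors and intervals given came from the fit without the block. The alternatives were the block, quantile normalization, 2 other filters, an offset of 16, 2 treatments of probe sets, 2 variance models and leaving out arrays.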

Additional observations from a re-analysis of the deposited data

How the results depend on the processing

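Of the S100 and annexin genes, 0 passed the threshold under any of the 18 alternatives, nor did any gene of the lists of other family members, partners and other EF-hand genes. With the replicate block the number of genes that passed among all genes was 6 against 2. It was 4 with every probe set as a row and 1 with the stricter filter, and it was between 0 and 5 when 1 array was left out. Without both arrays numbered 01 it was 0, without those numbered 02 it was 1 and without those numbered 03 it was 0. The median difference of the 9 genes, 0.56, was 0.16 with probe sets averaged per gene, where Anxa1 was too dim to test, 0.27 with every probe set as a row and 0.12 without both arrays numbered 03, and between 0.13 and 0.54 when 1 array was left out, lowest without knockout 03. For the other S100 and annexin genes the median was 0.067 with every probe set as a row, and between 0.21 and 0.61 when 1 array was left out. The block changed no other call.

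S100a6 stayed between 1.37 and 1.93, S100a4 between 0.63 and 1.30 and S100a13 between 0.42 and 0.67 under all 18 alternatives. These genes have 1 probe set each, so the probe-set treatments could not change these values. The block, filters and intensity trend could not either, since they leave the difference of any gene as it is. Anxa1 lay between -0.15 and 1.42, Anxa2 between -0.43 and 1.11, S100a10 between -0.58 and 0.14, S100a1 between -0.47 and 0.12, Anxa4 between -0.14 and 0.21 and Anxa5 between -0.01 and 0.51. The -0.43 of Anxa2 and the 0.12 of S100a1 came from averaging their probe sets. Among named genes outside the members, Anxa6 turned sign when 1 array was left out (-0.31 to 0.17) and without both arrays numbered 02 (0.34). Kcnk3 was at -0.051 without both numbered 01 and Efhd2 at 0.11 without both numbered 03. The cause was not tested. Precision is limited by having 3 arrays per genotype, and no detection call was used here.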
